A study of Cricetulus griseus with 3 samples.

Results

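The NF-kappaB pathway and its inflammatory target genes were followed through 3 RNA libraries from CHO cells, an established ovary line of the Chinese hamster (Cricetulus griseus). The genes were chosen by the human protein that the authors' table gives as the best match of each hamster transcript. The choice named 10 human proteins, and 9 of them had a transcript among the 21607 of the table: CXCL2 (P19875), which is the match of hamster Cxcl1, and CSF2 (P04141), ICAM1 (P05362), LIF (P15018), CSF1 (P09603), CCL2 (P13500), TNFAIP3 (P21580), NFKBIA (P25963) and NFKB1 (P19838). No transcript used here carried the match to NFKB2 (Q00653), which was not analysed here. A second transcript existed for 3 of the 9 proteins, 12 transcripts in all, and the transcript with the most reads stands for each gene. The genes were picked with the levels in these libraries already known, so the values below describe them and no test is attached.

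Each library was poly-A RNA from a purified microtubule structure. For interphase microtubules, cells were held for 16 h in 2 mM thymidine, which stalls DNA synthesis. For mitotic microtubules, which the table heads as metaphase, the same thymidine block was followed by 5 h of release and 4 to 5 h in nocodazole, a microtubule poison, at 0.1 ug/ml, and the loosened mitotic cells then spent 15 min in fresh medium. Midbodies, the dense microtubule bridges between daughter cells, came from the same treatment with 65 min in fresh medium. The design asks which RNAs accompany the midbody. There was 1 library per stage, so no difference has a replicate behind it, and no whole-cell RNA was included. The stage, the structure isolated and the time in fresh medium change together between the libraries and cannot be told apart. Release from thymidine and nocodazole were used for the mitotic and midbody libraries only, so every comparison with interphase also carries these treatments. In bulk RNA, fewer cells or structures that carry a transcript and less of it in each cannot be told apart either.

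NF-kappaB is a family of dimeric transcription factors that inhibitor proteins of the IkappaB class hold in the cytoplasm. Receptors for tumour necrosis factor, interleukin-1 or bacterial products activate the IKK kinase complex, which marks IkappaB for destruction and frees the dimers to enter the nucleus. Their targets include chemokines, growth factors for blood cells and adhesion molecules, and also the inhibitors that end the response, so the pathway limits itself. Many of these target mRNAs are short-lived.

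Libraries held 5134865 reads for midbodies, 8059745 for mitotic and 12672056 for interphase microtubules. Levels are RPKM, in which reads are divided by transcript length and by the library's total. Ratios between libraries are ratios of CPM, reads divided by the library's total alone, with exact 95% binomial intervals that cover counting error only. Kif23, which encodes a midbody motor protein, had 274 RPKM in midbodies, 109 in the mitotic and 79.0 in the interphase library. It was the only one of 5 stage markers past 2-fold between midbodies and the mitotic library. CCNB1 and PLK1, genes of mitotic regulators, were highest in interphase, with 108 and 128 RPKM. AURKB, another such gene, had 34.3 RPKM in interphase and no detectable difference from it in midbodies or the mitotic library. The intervals of its ratios to interphase were 0.805 to 1.08 for midbodies and 0.837 to 1.07 for the mitotic library. TOP2A, the remaining stage marker, was highest in midbodies, with 238 RPKM, against 195 in the mitotic and 121 in the interphase library. The mesenchymal filament gene matched to VIM had 239, 168 and 205 RPKM in the order midbody, mitotic, interphase. All 5 mesenchymal markers summed to 322, 249 and 389 RPKM, with FN1 and SPARC over 2-fold higher in interphase than in midbodies and the collagen genes COL1A1 and COL1A2 below 1 RPKM throughout. PTPRC, the defining leukocyte gene, had 0 reads in all 3 libraries, and 4 leukocyte markers together summed to 8.16, 13.5 and 7.56 RPKM, mostly from CD68. No epithelial marker of 4 reached 1 RPKM, and the 3 endothelial markers summed to between 1.17 and 1.49 RPKM.

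The 9 genes together were most abundant in midbodies and least abundant on mitotic microtubules. Their RPKM summed to 1444 in midbodies, 487 in the mitotic and 634 in the interphase library. In midbodies they ran from 20.5 RPKM for Csf1 to 369 for Nfkbia. In the mitotic library they ran from 7.22 for Csf1 to 160 for Ccl2, and in the interphase library from 16.2 for Csf1 to 196 for Ccl2. Of the 9 genes, 7 were highest in midbodies and 2, Lif and Nfkb1, were highest in interphase. Among all 13325 transcripts at 1 RPKM or more in some library, 22.4% were highest in midbodies and 48.9% in interphase. The mitotic library was the lowest of the 3 for 7 genes, all but Cxcl1 and Nfkbia, against 29.7% of all transcripts.

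**Figure D1:**
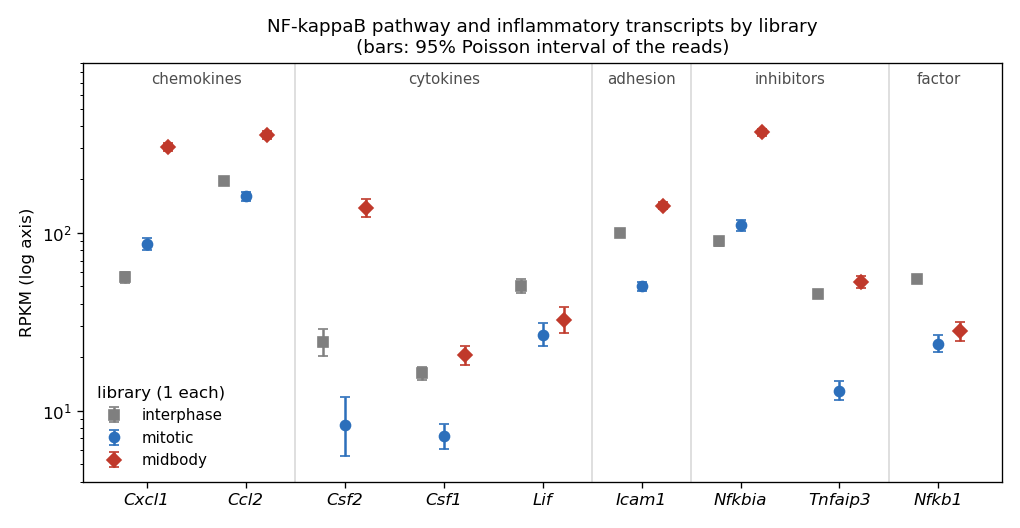
RPKM on a log axis for the 9 genes in the interphase, mitotic and midbody libraries, 1 library each, ordered by role, with bars for the 95% Poisson interval of the reads. The midbody point is the highest for 7 genes, and for Lif and Nfkb1 the interphase point is the highest.

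Of the chemokines, which draw leukocytes along a gradient, Cxcl1 had 304 RPKM in midbodies, 87.0 in the mitotic and 56.2 in the interphase library. Its rank by RPKM among all transcripts was 71 in midbodies, 1124 in the mitotic and 2759 in the interphase library. Cxcl1 attracts neutrophils through the receptor CXCR2. Its order was midbody, mitotic, interphase, and the 3 counting intervals of its level did not overlap. Midbodies exceeded mitotic microtubules by 3.49-fold (interval 3.18 to 3.83) and interphase microtubules by 5.40-fold (4.93 to 5.92), and the mitotic library exceeded interphase by 1.55-fold (1.39 to 1.72).

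The transcript XM_003495792.1, matched to CCL2, had 357 RPKM in midbodies, 160 in the mitotic and 196 in the interphase library. CCL2 recruits monocytes. Its ranks by RPKM were 46, 247 and 141 in that order, so it was abundant in every library. The midbody level was 2.23-fold (2.05 to 2.42) that of mitotic and 1.82-fold (1.70 to 1.95) that of interphase microtubules. A second transcript, XM_003495793.1, had 0 reads in every library, although its match to CCL2 was the closer by E-value, 2e-31 against 1e-22 for the transcript with reads. Which hamster chemokine the abundant transcript encodes is therefore less certain than for the other genes.

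Csf2 encodes GM-CSF, a growth factor for granulocytes and macrophages. Its transcript had 306 reads in midbodies, 29 in the mitotic and 133 in the interphase library, which is 138, 8.33 and 24.3 RPKM. Midbodies stood far above the other libraries and the mitotic library was the lowest. The midbody to mitotic ratio was 16.6 (11.3 to 25.2), and its interval did not overlap that of any other member. On the log2(RPKM + 1) scale the difference was 3.90, the highest of all 13131 transcripts compared there. Against interphase, midbodies were 5.68-fold higher (4.62 to 7.01), at rank 164 of 13059 on the log2(RPKM + 1) scale. Interphase exceeded the mitotic library by 2.92-fold (1.94 to 4.52).

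Csf1, the macrophage growth factor gene, was the least abundant member in every library, with 20.5 RPKM in midbodies, 7.22 in the mitotic and 16.2 in the interphase library. Part of its reads were shared with a second transcript of the gene, XM_003514206.1, which had 10.2, 4.65 and 11.3 RPKM. Both transcripts were lowest in the mitotic library. The midbody to mitotic ratio was 2.84 (2.33 to 3.50) for the main transcript and 2.19 (1.31 to 3.62) for the second. Against interphase the main transcript was 1.27-fold higher in midbodies (1.09 to 1.47), whereas the interval of the second, 0.609 to 1.30, included 1.

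Lif, which encodes a cytokine of the interleukin-6 family, had 32.5 RPKM in midbodies, 26.8 in the mitotic and 50.3 in the interphase library. Interphase was the highest and the other libraries were close to each other. The midbody to mitotic ratio of 1.21 had an interval of 0.964 to 1.52, so no difference was detectable at this depth. Interphase exceeded midbodies by 1.55-fold (1.28 to 1.88) and the mitotic library by 1.88-fold (1.58 to 2.24).

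Icam1 encodes a surface receptor that leukocyte integrins bind. Its level was 143 RPKM in midbodies, 50.0 in the mitotic and 100.0 in the interphase library. Midbodies were highest and the mitotic library lowest, with no overlap of the counting intervals. The midbody level was 2.85-fold (2.65 to 3.07) that of mitotic microtubules and 1.43-fold (1.35 to 1.51) that of interphase. Interphase exceeded the mitotic library by 2.00-fold (1.87 to 2.14), and on the log2(RPKM + 1) scale the mitotic minus interphase difference was -0.98, just inside the 2-fold line.

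Nfkbia and Tnfaip3, the members that inhibit the pathway, were among the members with the higher midbody to mitotic ratios. The interval of Nfkbia overlapped that of Csf1, however. Nfkbia encodes IkappaB alpha, the inhibitor that NF-kappaB itself induces. It had 369 RPKM in midbodies, 110 in the mitotic and 90.0 in the interphase library, and at rank 43 it was the most abundant member in midbodies. The order was that of Cxcl1, with midbodies well above the others. Midbodies exceeded mitotic microtubules by 3.35-fold (3.09 to 3.63) and interphase by 4.09-fold (3.80 to 4.41). The mitotic to interphase ratio was 1.22 (1.12 to 1.34).

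Tnfaip3 encodes a ubiquitin-editing enzyme that shuts off signalling upstream of IKK. It had 53.1 RPKM in midbodies, 13.0 in the mitotic and 45.3 in the interphase library. Midbody and interphase levels were close, and the mitotic library was far below both. Its midbody to mitotic ratio of 4.08 (3.54 to 4.73) was the second highest of the members, and its interval overlapped those of Cxcl1 and Nfkbia. Interphase exceeded the mitotic library by 3.49-fold (3.06 to 3.99), the largest value among the members, though its interval overlapped that of Csf2. Between midbodies and interphase the ratio was 1.17 (1.07 to 1.28).

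Nfkb1 encodes the precursor from which the p50 subunit of NF-kappaB is cut, and it did not reach a 2-fold excess in midbodies over either other library. It had 28.0 RPKM in midbodies, 23.8 in the mitotic and 55.1 in the interphase library. The interphase library was the highest, as for Lif. Its midbody to mitotic ratio of 1.17 had an interval of 0.991 to 1.39, so that difference was not detectable at this depth. Interphase exceeded midbodies by 1.97-fold (1.71 to 2.27) and the mitotic library by 2.31-fold (2.05 to 2.62). The second transcript matched to NFKB1, XM_003515505.1, a model of only 222 bases, had 14.9, 15.1 and 43.0 RPKM and thus also its highest level in interphase. With the levels of both transcripts added, the midbody minus interphase difference went from -0.95 to -1.18 on the log2(RPKM + 1) scale and passed the 2-fold line. The short model had 17 reads in midbodies and 121 in interphase, against 244 and 1186 for the main transcript. Division by its length gives these few reads a large weight in the added level.

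**Figure D2:**
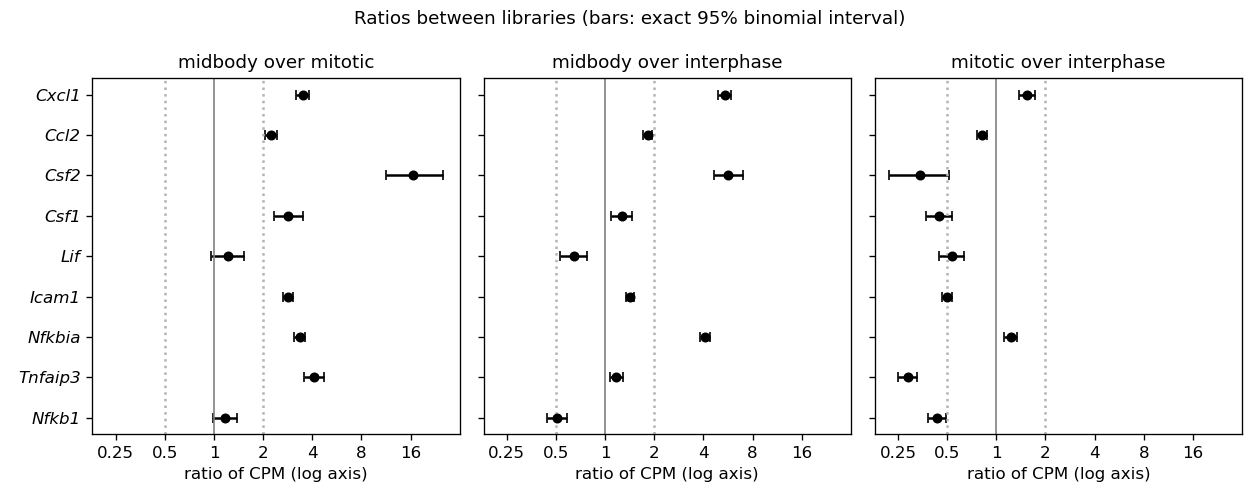
Ratios of CPM for the 9 genes in the 3 pairs of libraries, on a log axis, with exact 95% binomial intervals and dotted lines at 0.5 and 2. In the midbody over mitotic panel only the intervals of Lif and Nfkb1 include 1, and Csf2 stands apart at 16.6.

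Counted on the log2(RPKM + 1) scale, 7 of the 9 genes stood 2-fold or more above the mitotic library in midbodies and 0 stood 2-fold or more below it, where 2.09% and 1.80% of the 13131 compared transcripts were. The median difference of the members was 1.49, and that of all compared transcripts -0.03. These levels guided the choice of genes, so the excess over the background says nothing further about them. In the comparison of midbodies with interphase, 3 genes, Csf2, Cxcl1 and Nfkbia, passed 2-fold upward, beside 14.7% of all transcripts. Of the 9, 0 passed it downward, beside 20.8%, and the median was 0.51 against -0.15 for all transcripts.

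Between mitotic and interphase microtubules, Tnfaip3, Csf2, Nfkb1 and Csf1 passed 2-fold with the mitotic library lower, 4 of 9 beside 20.7% of all transcripts. Of the 9, 0 passed it with the mitotic library higher, beside 16.6%. The median was -0.98 and that of all transcripts -0.13. The comparisons share libraries, so a gene low in the mitotic library alone is counted in 2 of them. Csf2, Cxcl1 and Nfkbia were at least 2-fold above both other libraries in midbodies, as were 0.743% of all transcripts. Csf2, Csf1 and Tnfaip3 had a mitotic level 2-fold or more below both others, as had 0.991%.

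**Figure D3:**
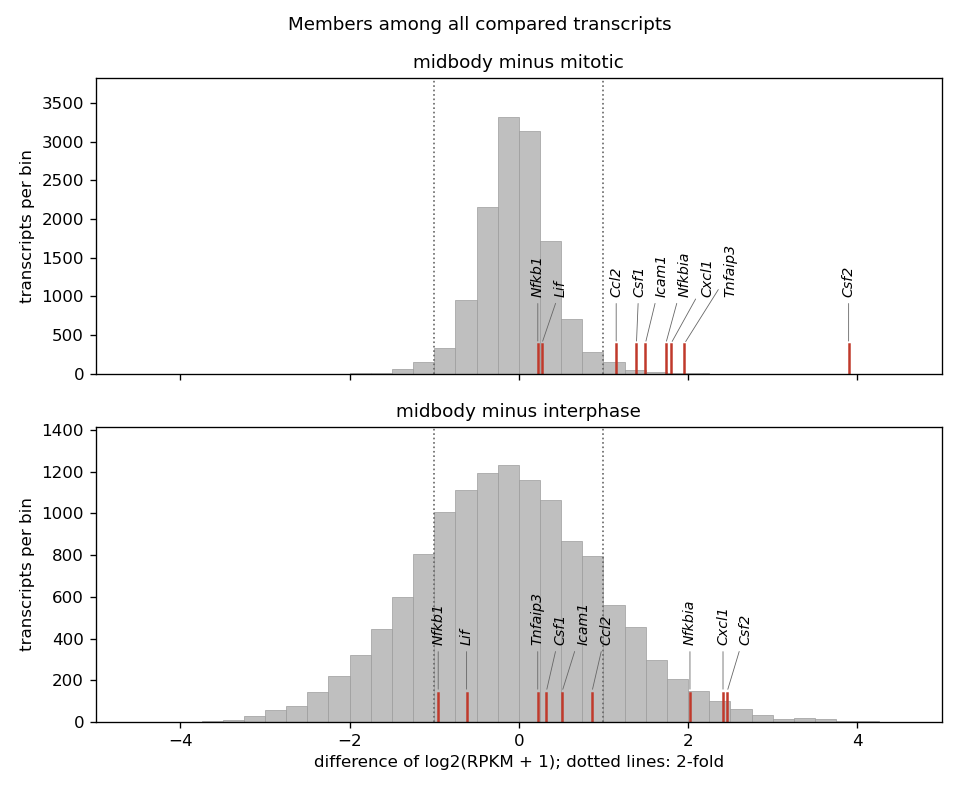
Histogram of the log2(RPKM + 1) differences of all compared transcripts, midbody minus mitotic above and midbody minus interphase below, with the 9 genes marked in red and dotted lines at 2-fold. The spread of all transcripts is narrower between midbodies and mitotic microtubules, where 7 genes lie past the upper line, than between midbodies and interphase, where 3 do.

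The rest of the pathway was read from 6 lists of 85 human genes, written with earlier results of these data known, of which 77 had a transcript. Among the 61 that reached 1 RPKM in midbodies or mitotic microtubules, 8 were higher in midbodies by 2-fold or more and 1 was lower, beside the same 2.09% and 1.80% of all transcripts. The 8 were NFKBIE, NFKBIZ, TRAF1, BIRC3, CXCL10, PTGS2, IRF1 and MMP9. The lower gene, the chemokine gene CCL5, rested on 1 read against 6 and is named because of its value. The other 52 lay within 2-fold, with a median over all 61 of 0.22. Of 60 compared between midbodies and interphase, 10 were higher in midbodies by 2-fold or more and 10 were lower. The shares of all transcripts were 14.7% and 20.8%, and the median of the 60 was 0.01.

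The remaining NF-kappaB and IkappaB genes were all above 0 between midbodies and mitotic microtubules, 6 of 6 compared. Their median difference was 0.59, beside -0.03 for all compared transcripts, of which more lay below 0 than above it. RELB, at 0.22, had a ratio interval of 0.982 to 1.40, which included 1. Against interphase, 3 were above 0 and 3 below, with a median of -0.03 beside -0.15 for all transcripts. There too, more of all transcripts lay below 0 than above it. NFKBIE, an IkappaB protein, had 39.8 RPKM in midbodies, 17.5 in the mitotic and 43.0 in the interphase library, with a midbody to mitotic ratio of 2.27 (1.93 to 2.66). NFKBIZ, a nuclear IkappaB that alters target choice, had 89.0, 41.6 and 12.9 RPKM. Its midbody level was 2.14-fold (1.94 to 2.36) that of mitotic and 6.91-fold (6.09 to 7.85) that of interphase microtubules. Its interval over interphase overlapped that of Csf2 and lay above those of the other members. NFKBIB, another cytoplasmic inhibitor, had the opposite order against interphase, with 14.2, 9.53 and 35.4 RPKM.

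The DNA-binding subunits RELA, REL and RELB lay within 2-fold in every pair of libraries, and in each pair so did most compared transcripts. RELA, the main activating subunit, had 85.2 RPKM in midbodies, 65.3 in the mitotic and 114 in the interphase library, and its midbody level was 1.30-fold that of the mitotic library (1.20 to 1.42). REL had 26.7, 16.8 and 13.8 RPKM and RELB 26.2, 22.3 and 25.1. The interval of RELB included 1 between midbodies and each other library. BCL3, an atypical IkappaB, had at most 10 reads in any library.

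Genes of the signalling machinery upstream lay within 2-fold between midbodies and mitotic microtubules. The IKK catalytic subunits CHUK and IKBKB had 34.3 and 32.2 RPKM in midbodies, 37.5 and 40.6 in the mitotic and 46.6 and 48.9 in the interphase library. IKBKG, the regulatory subunit, had 6.91, 5.55 and 23.2 RPKM and was 3.36-fold higher in interphase than in midbodies (2.47 to 4.66). Of 21 receptor, adaptor and kinase genes, 0 passed 2-fold in either direction in that comparison, with a median of -0.05. Only 2.09% and 1.80% of all transcripts passed it there, so a count of 0 among 21 is near the background. The furthest were TRAF2 and TRAF5, receptor adaptors, at 0.73 and 0.72, and the kinase gene IRAK1 and its downstream partner TAB1, at -0.61 and -0.53. Against interphase, 2 of the 21 passed 2-fold with midbodies higher and 3 with midbodies lower, beside 14.7% and 20.8% of all transcripts.

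Of 11 genes for feedback and ubiquitin editing, 2 passed 2-fold with midbodies above the mitotic library and 0 with midbodies below it. The shares of all transcripts were 2.09% and 1.80%, and the median of the 11 was 0.43. Against interphase, 2 passed 2-fold with midbodies higher and 3 with midbodies lower, beside 14.7% and 20.8% of all transcripts. BIRC3, a ubiquitin ligase that NF-kappaB induces, had 131 RPKM in midbodies, 30.5 in the mitotic and 29.5 in the interphase library, a midbody to mitotic ratio of 4.27 (3.93 to 4.65), with part of its reads shared with other transcripts. TRAF1, an adaptor that NF-kappaB also induces, had 19.7, 4.02 and 32.8 RPKM. Its midbody to mitotic ratio was 4.91 (3.25 to 7.62), and interphase was 8.17-fold (5.66 to 12.2) above the mitotic library. OTULIN, which trims linear ubiquitin chains, and TNIP1, a binding partner of TNFAIP3, were at 0.78 and 0.64 on the log2 scale between midbodies and mitotic microtubules.

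Of 27 inflammatory target genes outside the 9 with a transcript, 9 were below 1 RPKM in every library. Of all 21607 transcripts, 13325 reached 1 RPKM in some library, so a count of 9 among 27 is near the background. Among these low targets is the transcript matched to CXCL3, with 1 read in midbodies and 0 in the mitotic and interphase libraries. A different transcript, which RefSeq names Cxcl3, carries no human match and is not counted here. Its higher levels are given under other observations. TNF, IL1B, CCL20 and CD83 had 0 reads in every library, which allows up to 0.584 CPM in midbodies, 0.372 in the mitotic and 0.237 in the interphase library. Of the 18 targets compared, 4 passed 2-fold with midbodies above the mitotic library and 1 with midbodies below it. The shares of all transcripts were 2.09% and 1.80%, and the median of the targets was 0.68. Against interphase, 5 of 17 passed 2-fold with midbodies higher and 2 with midbodies lower, beside 14.7% and 20.8% of all transcripts. PTGS2, the inducible prostaglandin synthase, had 94.2 RPKM in midbodies, 20.3 in the mitotic and 73.6 in the interphase library. Its midbody to mitotic ratio was 4.64 (4.22 to 5.11), and like Tnfaip3 it was close between midbodies and interphase, at 1.28 (1.21 to 1.36).

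IRF1, a transcription factor gene, had 77.3, 34.9 and 29.0 RPKM, again with midbodies given before mitotic and interphase, a midbody to mitotic ratio of 2.22 (1.89 to 2.60). MMP9, a matrix protease gene, had 86.1, 37.3 and 143 RPKM, a ratio of 2.31 (2.09 to 2.54), with the highest level in interphase. CXCL10, a chemokine gene, rested on 23, 2 and 26 reads, and its ratio of 18.1 had an interval of 4.46 to 158. Between mitotic and interphase microtubules, 6 of 18 targets passed 2-fold with the mitotic library lower and 1 with it higher, beside 20.7% and 16.6% of all transcripts.

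Most receptors for the member cytokines, chemokines and Icam1 had few reads. Of 8 with a transcript, 6 were below 1 RPKM in every library, among them CXCR2, the receptor for Cxcl1, and LIFR, the receptor for Lif. For comparison, 13325 of all 21607 transcripts reached 1 RPKM in some library. The 6 also include ITGAL, ITGAM and ITGB2, genes of leukocyte integrins that bind Icam1 and are not cytokine receptors. IL6ST, the signalling chain that LIFR pairs with, had 43.4 RPKM in midbodies, 37.2 in the mitotic and 68.4 in the interphase library. CSF1R, the receptor for Csf1, had 1.66, 2.71 and 0.944 RPKM.

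**Figure D4:**
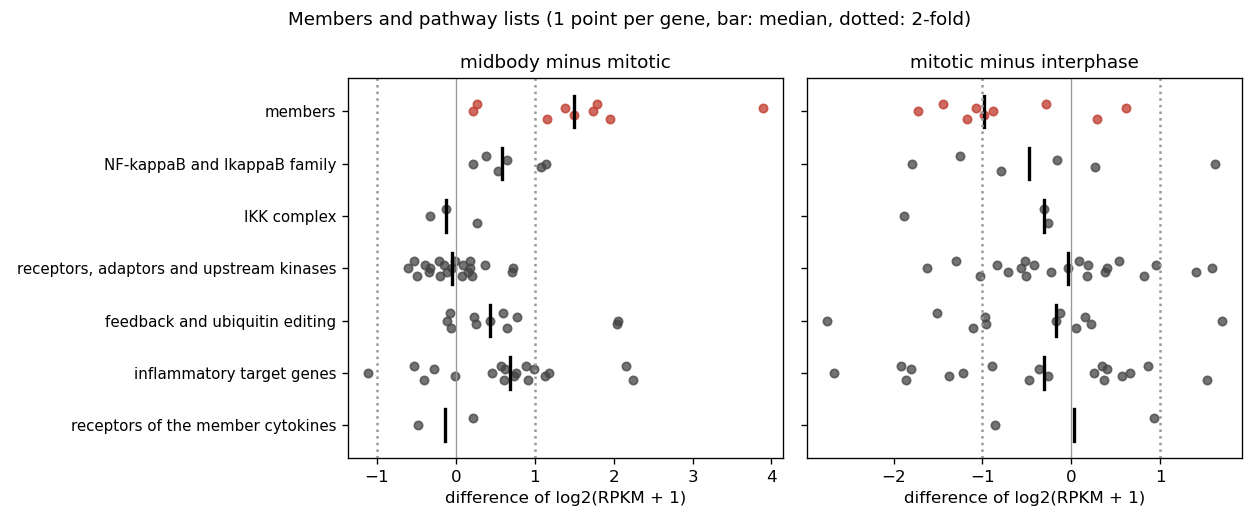
Differences of log2(RPKM + 1), midbody minus mitotic on the left and mitotic minus interphase on the right, for the 9 genes in red and the 6 pathway lists in grey, with 1 point per gene at 1 RPKM or more in either library, a bar at each median and dotted lines at 2-fold. On the left the medians run from 1.49 for the 9 genes and 0.68 for inflammatory targets down to -0.13 for receptors of the member cytokines, of which only 2 genes are plotted.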

How the data were processed

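Poly-A RNA was purified with RNeasy and an oligo-dT kit and made into TruSeq libraries, per the labels' protocols. The deposited table gives estimated counts of reads per RefSeq transcript, fractional in 15.7%, 16.7% and 14.7% of transcripts for midbody, mitotic and interphase (further than 0.01 from a whole number), and RPKM, which the file headers show the authors to have computed. The BLASTX match to a human UniProt protein is also the authors', with E-values of at most 1e-20. For aligner, counting program, strand and genome build: not given in the sources used here. Enrichment scores of the authors were left out.

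Human UniProt identifiers were read as their standard human gene names. RefSeq (CriGri-PICRH-1.0) gave a symbol to 311 transcripts, Cxcl1 and Icam1 among the members, and the other members are named by their human match. Per identifier, the transcript with the most reads was used. Differences are of log2(RPKM + 1), a scale that shrinks those of low transcripts, for transcripts at 1 RPKM or more in either library. Called means 2-fold on that scale. Ratios are of CPM, computed from the deposited counts, with Clopper-Pearson 95% intervals, for which fractional reads were rounded. Without molecular identifiers, reads are not independent molecules, and intervals and the limit of 3 reads behind a count of 0 cover counting error only. With 1 library per group no test was made. The interval procedure was tested on simulated Poisson counts only, which follow the counting error it assumes. That test did not cover transcripts with few reads, fractional reads or variation between libraries.

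Named genes were all members and their second transcripts, the NF-kappaB, IkappaB and IKK genes, up to 4 of each other list with the largest midbody to mitotic differences, and Kif23. Cell type and stage markers, genes with 0 reads, CXCR2, LIFR, ITGAL, ITGAM, ITGB2, CXCL3 and CCL5 were named outside this rule, after their values were seen. Members and lists were chosen with earlier results of these data known. Promoter motifs were planned but not analysed here. Computations used Python 3.11.15, numpy 2.4.6, pandas 2.3.3, scipy 1.17.1 and matplotlib 3.10.9.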

Additional observations from a re-analysis of the deposited data

How the results depend on the processing

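No paired analysis was possible because each stage has 1 library. The alternatives were pseudocounts of 0.1 and 5, filters at 10 RPKM and at none, scaling by the median of ratios or by the trimmed mean of M values, CPM for RPKM, and summed transcripts per human protein. All 27 member differences kept their sign in these 216 recomputed values, and 2 crossed the 2-fold line. Part of this was fixed in advance. Every member exceeded 10 RPKM in the higher library of each pair, so neither filter could change a member's value. Summing transcripts changed the values of Csf1 and Nfkb1 only. With summed transcripts, 1 gene, Nfkb1, passed 2-fold with midbodies below interphase, against 0. With a pseudocount of 5, the mitotic minus interphase difference of Csf1 went from -1.07 to -0.80, which left 3 genes in place of 4. The 7 and 3 genes higher in midbodies than in mitotic and interphase microtubules were 7 and 3 in each alternative. The 1 pathway gene lower in midbodies than in mitotic microtubules became 0 with a pseudocount of 5, a filter at 10 RPKM or CPM. For all transcripts between midbodies and mitotic microtubules, the 274 higher and 237 lower became 458 and 479 at pseudocount 0.1, 99 and 31 at pseudocount 5, and 174 and 81 under the 10 RPKM filter. Against interphase, a pseudocount of 5 and the 10 RPKM filter took the higher counts from 1921 to 1091 and 1278 for midbodies and from 2183 to 1196 and 1399 for the mitotic library. The midbody library is the shallowest, and genes with few mitotic reads, such as Csf2 with 29 and CXCL10 with 2, have the widest intervals.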

Other observations

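Values follow for 5 genes of inflammation outside the members and the naming rule, chosen after their values were seen. Cxcl3, ZC3H12A and IER3 were lowest in interphase, whereas BCL2L1 and SOD2 were lowest in the mitotic library. Cxcl3, a chemokine gene named by RefSeq with part of its reads shared with other transcripts, had 101 RPKM in midbodies, 118 in the mitotic and 20.2 in the interphase library. This transcript carries no human match and differs from the nearly unread transcript matched to CXCL3 that the target list holds. The mitotic level of the RefSeq Cxcl3 transcript was 5.82-fold (5.13 to 6.63) that of interphase, where Cxcl1 had a ratio of 1.55. ZC3H12A, which encodes a ribonuclease that degrades inflammatory mRNAs, had 120 RPKM in midbodies, 79.0 in the mitotic and 23.7 in the interphase library, 5.09-fold (4.64 to 5.58) higher in midbodies than in interphase. IER3, an early response gene, had 412, 243 and 153 RPKM in the same order. BCL2L1, which encodes a survival protein of the BCL2 family, had its highest level in interphase, with 9.68, 6.17 and 44.6 RPKM, 7.23-fold (5.25 to 10.2) above the mitotic library. SOD2, the mitochondrial superoxide dismutase gene, was also highest in interphase, with 40.7, 21.1 and 79.6 RPKM.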
